A study of Mus musculus with 6 samples.

Results

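Voltage-gated sodium and calcium channel genes were followed in RNA that was pulled down with tagged ribosomes from the cortex of S100a10 bacTRAP mice. The set holds every gene with a probe set of 1 gene symbol that starts with Scn and a digit, or with Cacna, Cacnb or Cacng. It has 35 genes out of 18193 genes with such probe sets, and each was read from its brightest probe set, the one with the highest mean over the 6 arrays. The cells came from S100a10 bacTRAP mice (line ES691), in which a bacterial artificial chromosome drives a tagged ribosome in S100a10-expressing cells, crossed to mice with a constitutive knockout of p11, the protein that S100a10 encodes. All 6 samples carry that transgene and that knockout, on a background derived from FVB by 3 to 5 generations of crossing to C57BL/6. The FLX group (3 arrays) drank fluoxetine, a selective serotonin reuptake inhibitor, at 0.167 mg/ml in 1% saccharine, and the VEH group (3 arrays) drank 1% saccharine alone, each for 15 to 18 days. The labels give neither the age and sex of the animals nor the number of mice per array. By the submitters' account the transgene is also active in some cells that are not neurons. Values are normalized probe set intensities on a linear scale, and a probe set entered the tests if its mean reached 50 in FLX, in VEH or in both. By that minimum 28 of the 35 channel genes were tested, 26 through both groups, Cacng5 through FLX alone and Cacng6 through VEH alone.

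Voltage-gated sodium channels open on depolarisation and carry the rising phase of the action potential. Their pore is 1 large alpha subunit, and small single-pass beta subunits adjust its gating and its place in the membrane. Voltage-gated calcium channels turn depolarisation into calcium entry, which drives transmitter release, dendritic spikes and signalling to the nucleus. Their alpha1 pore is joined by an extracellular, membrane-anchored alpha2delta subunit and a cytoplasmic beta subunit. Most of the gamma proteins named after this family act in brain as TARPs, auxiliary subunits that traffic and gate AMPA-type glutamate receptors. In pyramidal neurons of the cortex these channels set the threshold for firing and the size of dendritic calcium signals.

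Over all tested probe sets the log2 values of replicates 1 and 2 of both groups had pairwise r of 0.987 to 0.995. Either replicate 3 array had r of 0.867 to 0.916 with these 4, and the pair had 0.973, so replicate 3 stood apart and values are given below by replicate number. The brightest probe set of S100a10, the gene whose promoter defines the targeted cells, had 2222, 2037 and 349 in FLX and 3111, 2248 and 643 in VEH. It was thus lowest in the replicate 3 arrays, and the other probe sets of the gene stayed under 50. Without a wild-type array and without the probes' position relative to the deletion, these values check nothing about the genotype. Of the cortical pyramidal cells that the series' title names, all 4 measured excitatory neuron markers reached 50, as did 8 of 9 layer 5 markers (Colgalt2 did not). Markers of other cells were present too. All 8 interneuron, all 8 astrocyte, all 6 measured oligodendrocyte and all 5 oligodendrocyte precursor markers reached 50. So did 7 of 8 microglial and all 10 leptomeningeal markers. Fewer did so among endothelial markers, with 4 of 8 (Pecam1, Tek, Flt1 and Cdh5 were under 50). Among pericyte and smooth muscle markers 5 of 8 did (Myh11, Des and Kcnj8 were under 50). In bulk RNA of this kind fewer cells of a type and less RNA per cell cannot be told apart.

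**Figure D1:**
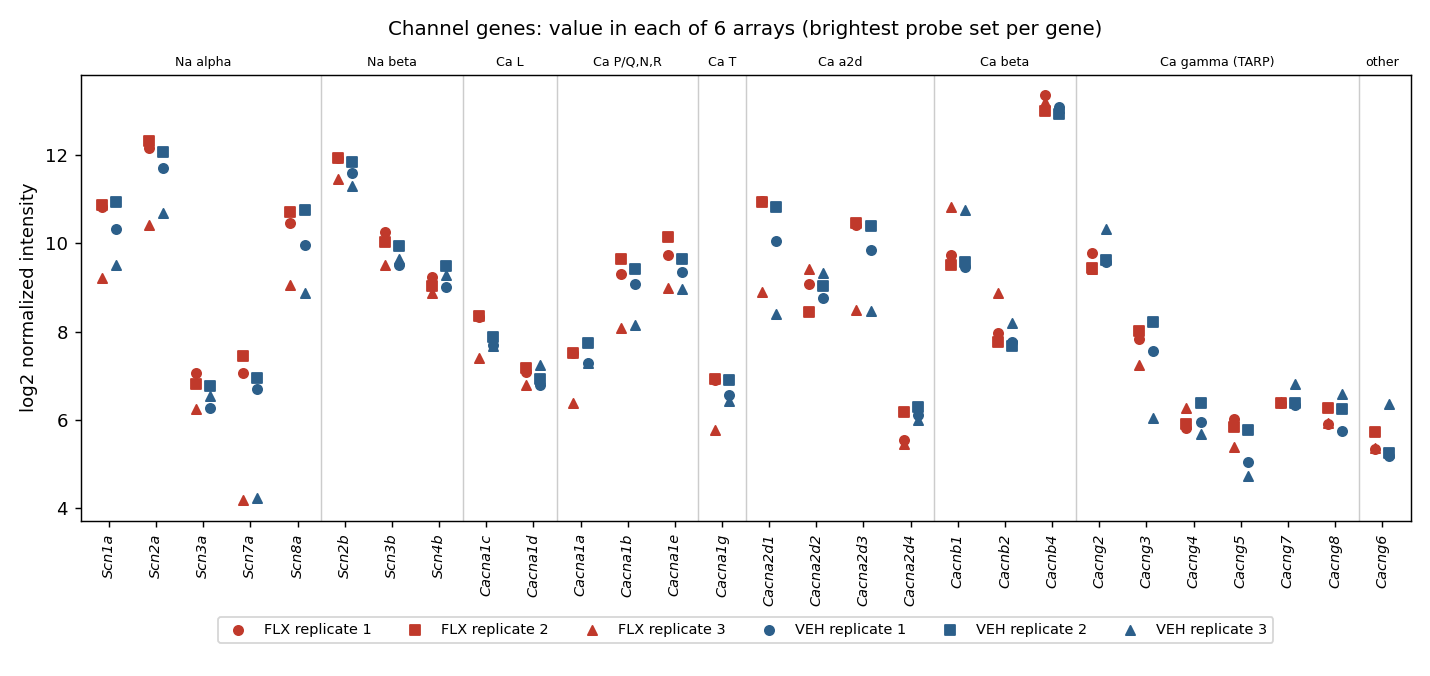
Log2 normalized intensity of the 28 tested channel genes in each array, with FLX in red, VEH in blue and the replicate number as the symbol. Grey lines divide the subunit types. The triangles of replicate 3 lie apart from the other symbols for Scn2a, Scn7a, Cacna2d1 and Cacnb1, whereas no gene has all 3 red symbols on one side of all 3 blue ones.

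Fluoxetine left no channel gene past the threshold. No gene of the 28 had an adjusted p under 0.05 (limma, Benjamini-Hochberg over 22200 probe sets), and of all probe sets 0% were called. An unadjusted p under 0.05 was reached by 0 of the 28 and by 37 of 12213 tested genes (0.303%). For none of the 28 did the FLX and VEH values stop overlapping, against 2.61% of all tested genes with every FLX value higher and 1.65% with every FLX value lower. Differences, given as log2 FLX minus VEH, ran from -0.41 for Cacna2d4 to 0.56 for Cacng5, with standard errors of 0.19 to 1.10. They were positive in 18 of the 28 genes, beside 58.1% of all tested genes, and their median was 0.13 beside 0.05. Depending on which array was left out, with the other array of its replicate number kept, 13 to 18 of the 28 were positive. With the replicate number as a block, limma also called 0 probe sets (0%), and the unadjusted p was under 0.05 in 3 of the 28 genes and in 7.60% of all tested genes. The median SE over the 28 genes was 0.34 without the block and 0.20 with it, and SEs below are without it unless stated.

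The differences depended on the replicate number. In replicate 1 the FLX array was the higher one in 26 of 28 channel genes, beside 51.2% of all tested genes, with a median of 0.31 beside 0.01. In replicate 2 it was higher in 17 of 28 (47.9% of all tested genes), with a median of 0.06. In replicate 3 it was higher in 12 of 28 (61.5% of all tested genes), with a median of -0.10 beside 0.15. The 2 genes that were lower in FLX in replicate 1 were Cacna2d4 and Cacng4, and 15 genes were higher in FLX in replicate 1 and lower in replicate 3. Each of these counts compares 1 array with 1 array, so none has a test, and numbers 1 and 2 were matched by label only. In all 3 replicate numbers FLX was higher in 7 of 28 channel genes (20.2% of all tested genes) and lower in 1 (13.6%). The 7 were Scn2b, Cacna1e, Cacna2d1, Cacna2d3, Cacnb2, Cacnb4 and Cacng5, and the share was not tested. Of the 13 genes with several tested probe sets, 9 had a FLX minus VEH difference of 1 sign in all of them, and Scn1a, Scn2a, Scn2b and Cacnb4 did not. When every array was centred on the median of the tested probe sets, a shift of 0.12 between FLX and VEH in replicate 3 was removed and the counts became 26, 18 and 8. After a second quantile normalization they were 26, 18 and 9. The channel partner genes described below were shifted as well. Of the tested sodium channel partners 14 of 16 were higher in FLX in replicate 1, with a median of 0.46. Of the tested calcium channel partners 16 of 19 were, with a median of 0.33. The shift in replicate 1 was thus not particular to the channel genes. Some marker lists also differed between the replicate 1 arrays. The FLX array was higher in 8 of 8 interneuron markers (sums of 22415 in FLX and 16171 in VEH) and in 4 of 4 excitatory neuron markers. It was higher in 2 of 7 tested microglial and in 1 of 10 leptomeningeal markers (sums of the latter 32781 and 55909). For layer 5 it was higher in 5 of 8 tested markers (9243 and 7104), near the 51.2% of all tested genes. The part of these cells in the result was not tested.

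**Figure D2:**
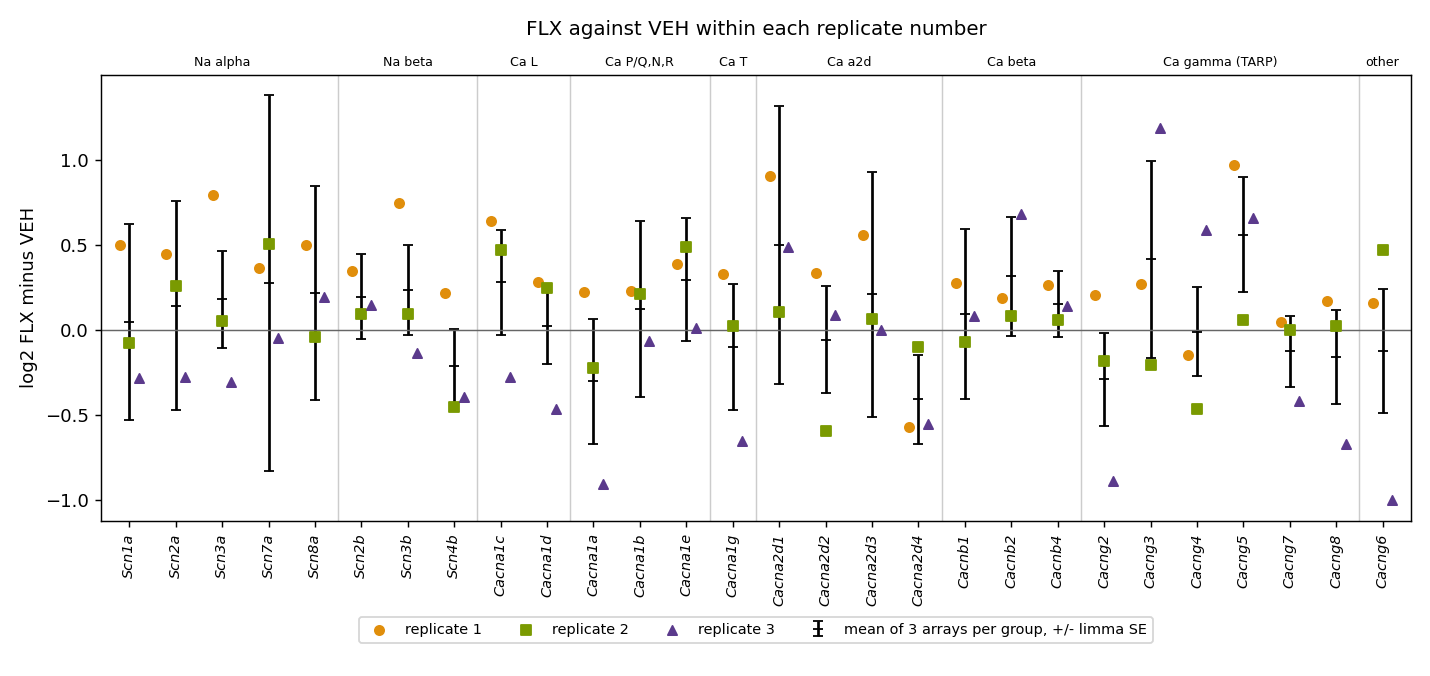
Log2 difference between the FLX and the VEH array of the same replicate number for each tested channel gene (coloured symbols), with the mean over 3 arrays per group and its limma standard error in black. The orange circles of replicate 1 lie above 0 in 26 of 28 genes, and the purple triangles of replicate 3 in 12.

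Among the sodium channel alpha subunits, which form the pore, 5 of 8 measured genes were tested. Scn8a, the main channel of the axon initial segment and the nodes of mature neurons, had normalized intensities of 1406, 1666 and 534 in FLX replicates 1 to 3 and of 993, 1715 and 467 in VEH replicates 1 to 3. The replicate 3 array was the lowest of either group, and the VEH values overlapped those of FLX. The difference was 0.22 (SE 0.63) on the log2 scale, with 3 arrays in each group. Scn3a, most abundant before birth, had 134, 113 and 75.9 in FLX and 77.2, 109 and 93.9 in VEH. Its difference of 0.18 (SE 0.28) came from replicate 1, where FLX exceeded VEH by 0.80. Scn7a, a sodium-sensing relative that is not opened by voltage, had 135, 174 and 18.1 in FLX against 104, 123 and 18.7 in VEH, a difference of 0.28 (SE 1.10). It fell below the minimum of 50 in replicate 3 of either group. Scn2a and Scn1a, the other major alpha subunits of the cortex, were chosen for display after their values were seen. Scn2a, the leading channel of excitatory neurons, had 4519, 5088 and 1369 in FLX and 3316, 4255 and 1655 in VEH. Scn1a, best known from fast-spiking interneurons, had 1809, 1853 and 596 in FLX and 1277, 1954 and 725 in VEH. The differences of Scn2a and Scn1a were 0.14 (SE 0.61) and 0.05 (SE 0.58), and each had other tested probe sets of the opposite sign. Scn9a, Scn10a and Scn11a, the alpha subunits of peripheral sensory neurons, stayed under the minimum by group mean.

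All 3 measured sodium beta subunits were tested. Scn2b, which is disulfide-linked to the alpha subunit, had 3911, 3908 and 2786 in FLX and 3073, 3665 and 2514 in VEH. It was higher in FLX in each of the 3 replicate numbers (0.35, 0.09 and 0.15), with a difference of 0.20 (SE 0.25), beside 20.2% of all tested genes with that pattern. Its 2 dimmer tested probe sets disagreed. One had a difference of 0.45, with every FLX value above every VEH value and an unadjusted p of 0.0278 with the replicate block (adjusted p = 0.623, limma), and the dimmest had -0.17. Scn3b, a non-covalently bound beta subunit, had 1213, 1045 and 731 in FLX and 724, 979 and 804 in VEH. Scn4b, the subunit linked to resurgent sodium current, had 600.2, 523 and 469 in FLX and 516, 715 and 617 in VEH. The differences of Scn3b and Scn4b were 0.23 (SE 0.26) and -0.21 (SE 0.22), with overlapping groups in either case.

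Of the calcium channel pores, 6 of 9 measured alpha1 genes were tested. The L-type genes Cacna1c and Cacna1d, whose channels link calcium entry to transcription, had higher FLX values in replicates 1 and 2 and a lower one in replicate 3. Cacna1c had 322, 326 and 168 in FLX and 206, 235 and 203 in VEH, a difference of 0.28 (SE 0.31). Cacna1d had 136, 144 and 110.1 in FLX and 112, 121 and 152 in VEH, a difference of 0.02 (SE 0.22). The presynaptic P/Q-type gene Cacna1a had 183, 184 and 84.0 in FLX and 157, 214 and 157 in VEH. Its FLX replicate 3 array was the lowest of the 6 and set the sign of the difference, which was -0.30 (SE 0.37) with it and 0.08 without it. Cacna1b, the N-type pore, which also serves transmitter release, had 629, 795 and 272 in FLX and 536, 688 and 284 in VEH. Cacna1e, the R-type pore found in dendrites and spines, had 855, 1126 and 504 in FLX and 652, 803 and 501 in VEH. It was higher in FLX in all 3 replicate numbers (0.39, 0.49 and 0.01), although the groups overlapped. The difference of 0.30 had an SE of 0.36, or of 0.17 with the replicate block, where the unadjusted p was 0.127 (adjusted p = 0.657, limma). Cacna1g, a T-type pore that opens near the resting potential, had 119, 121 and 54.4 in FLX and 94.9, 119 and 85.6 in VEH. The T-type gene Cacna1h and the muscle and retinal L-type genes Cacna1s and Cacna1f were not tested.

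All 4 alpha2delta genes, which bring the pore to the cell surface and of which Cacna2d1 and Cacna2d2 encode the targets of gabapentin, were tested. Cacna2d1 had 1980.1, 1948 and 473 in FLX and 1059, 1807 and 337 in VEH. Its FLX array was the higher one in all 3 replicate numbers (0.90, 0.11 and 0.49), and the mean difference was 0.50. The SE was 0.82, and with the replicate block the unadjusted p was 0.0357 and the adjusted p 0.623. Cacna2d3 had 1356, 1411 and 357 in FLX and 919.8, 1347 and 356 in VEH, a difference of 0.21 (SE 0.72). Cacna2d4 had 46.8, 72.7 and 43.8 in FLX and 69.3, 78.0 and 64.1 in VEH. It was the 1 channel gene that was lower in FLX in all 3 replicate numbers (-0.57, -0.10 and -0.55), a pattern held by 13.6% of all tested genes. Its difference was -0.41 (SE 0.26), and 2 of the FLX values lay under 50. With the replicate block its unadjusted p was 0.0498 and its adjusted p 0.625 (limma). The other tested probe set of the gene had a difference of -0.60, with every FLX value below every VEH value, an unadjusted p of 0.0225 (adjusted p = 1.00, limma) and FLX values of 31.3, 36.3 and 31.5, all under 50. That probe set passed the minimum through VEH alone, so the choice favoured a negative value. Cacna2d2, known from cerebellar neurons, ranged from 347 to 678 over the 6 arrays, with a difference of -0.06.

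The cytoplasmic beta subunits, which chaperone the pore to the membrane, were positive in 3 of 3 genes. Cacnb2 had 249, 217 and 468 in FLX and 218, 204 and 292 in VEH, a difference of 0.32 (SE 0.35). FLX was higher in all 3 replicate numbers (0.19, 0.08 and 0.68). The difference was -0.02 without FLX replicate 3, but VEH replicate 3, the highest VEH array, then stayed in without its partner. Cacnb4, whose loss causes ataxia and seizures in mice, had 10433, 8082 and 9385 in FLX and 8695, 7771 and 8495 in VEH. Its replicate 3 arrays lay among the others, and its difference was 0.15 (SE 0.19). Cacnb1, first known from skeletal muscle, had 849, 724 and 1816 in FLX and 699.6, 761 and 1717 in VEH. Its replicate 3 arrays were the highest in either group, and the groups differed by 0.10 (SE 0.50).

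Of the 6 TARP genes, 2 had positive and 4 negative differences. Cacng5, a type II TARP, had 65.1, 56.9 and 41.7 in FLX and 33.3, 54.7 and 26.4 in VEH, higher in FLX in all 3 replicate numbers. Its difference of 0.56 (SE 0.34) was the largest of the 28, but it passed the minimum through FLX alone, so the choice favoured a positive value. With the replicate block its unadjusted p was 0.0289 and its adjusted p 0.623. Cacng3 had 228, 256 and 150.4 in FLX and 189, 296 and 66.1 in VEH. Cacng2, also called stargazin, had 874, 694 and 686 in FLX and 758, 789 and 1270.4 in VEH, where the VEH replicate 3 array stood above the other 5. The differences of Cacng3 and Cacng2 were 0.42 (SE 0.58) and -0.29 (SE 0.27). Cacng4, Cacng7 and Cacng8 lay between 51.7 and 113 over the 6 arrays, with differences of -0.01, -0.12 and -0.16. Cacng7 had the identical value of 83.6 in FLX replicates 1 and 2 and in VEH replicate 2, so its difference says little. Of the gamma genes outside the TARPs, Cacng6 had 40.7, 53.3 and 41.3 in FLX and 36.5, 38.4 and 82.6 in VEH, so that the VEH replicate 3 array alone carried it past the minimum, and Cacng1 was not tested.

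More channel genes were called by replicate number than by treatment. In a model of treatment and replicate number, the limma F test of the replicate number called 43.1% of all probe sets (adjusted p under 0.05), and it called 11 of the 28 channel genes. Called and with replicate 3 below the mean of the other numbers were 9 of 28, beside 26.7% of all tested genes, and called with replicate 3 above it were 2 of 28, beside 17.9%. The 9 of 28 stand near the background share and the 2 of 28 under theirs, with no test of either difference. In addition 8 of 28 were at least 2-fold lower (20.7% of all tested genes), and 1 of 28, Cacnb1, was at least 2-fold higher (8.33%). Both replicate 3 arrays lay below the other 4 arrays in 12 of 28 genes (35.2% of all tested genes) and above them in 4 (33.0%). Replicate 3 was lower in either group in 16 of 28 genes (41.4% of all tested genes) and higher in 5 (40.5%), and the 16 became 12 under each of the 2 rescalings. The test rests on replicate 3, since a comparison of replicates 1 and 2 alone called 0 probe sets. That replicate 3 stood apart was known when this comparison was set up.

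Calls were made for 4 of 5 sodium alpha subunits, 2 of 6 calcium channel pores, 2 of 4 alpha2delta subunits, 2 of 3 cytoplasmic beta subunits, 1 of 6 TARPs and 0 of 3 sodium beta subunits, beside 5448 of 12213 tested genes, and differences between these types were not tested. Of the sodium alpha subunits Scn8a (2.83-fold), Scn2a (2.82-fold) and Scn1a (2.59-fold) fell, with an adjusted p of 0.00148, 0.00252 and 0.00405 in limma's F test. Scn7a was also called (adjusted p = 1.74e-04, limma), but its replicate 3 values of 18.1 and 18.7 lie under the minimum of 50, so the size of its fall and its rank among the members cannot be read. For Scn1a and Scn2a all 3 tested probe sets of each gene were lower in replicate 3, by 1.23 to 1.54 on the log2 scale. Among the calcium channel pores Cacna1b fell 2.36-fold (adjusted p = 0.00262, limma) and Cacna1e 1.68-fold (adjusted p = 0.0246, limma), the latter no longer called under either rescaling or without replicate 2. Of the alpha2delta genes Cacna2d1 fell 4.12-fold and Cacna2d3 3.48-fold (adjusted p = 7.31e-04 and 8.78e-04, limma), while Cacna2d2 was higher in replicate 3 in either group (0.64 in FLX and 0.42 in VEH on the log2 scale) without passing. Cacng3 fell 2.40-fold (adjusted p = 0.0187, limma), with log2 differences of -0.69 in FLX and -1.84 in VEH, and was no longer called with no filter on low values. The 2 genes that rose encode cytoplasmic beta subunits, Cacnb1 by 2.33-fold (adjusted p = 0.00323, limma) and Cacnb2 by 1.67-fold (adjusted p = 0.0395, limma), the latter no longer called with no filter, with array weights, with the replicate number as the only term or without replicate 2. Not every other tested probe set of these 2 genes was called. That of Cacnb2 had 0.79 in FLX and -0.11 in VEH on the log2 scale (adjusted p = 0.461, limma). For Cacnb1, 1 rose 1.72-fold (adjusted p = 0.022, limma) and 1 rose 1.38-fold (adjusted p = 0.127, limma). Scn2b, which was not called, had log2 differences of -0.49 in FLX and -0.42 in VEH. Of the 13 genes with several tested probe sets, 11 had replicate 3 differences of 1 sign in all, and Cacna1a and Scn2b did not.

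**Figure D3:**
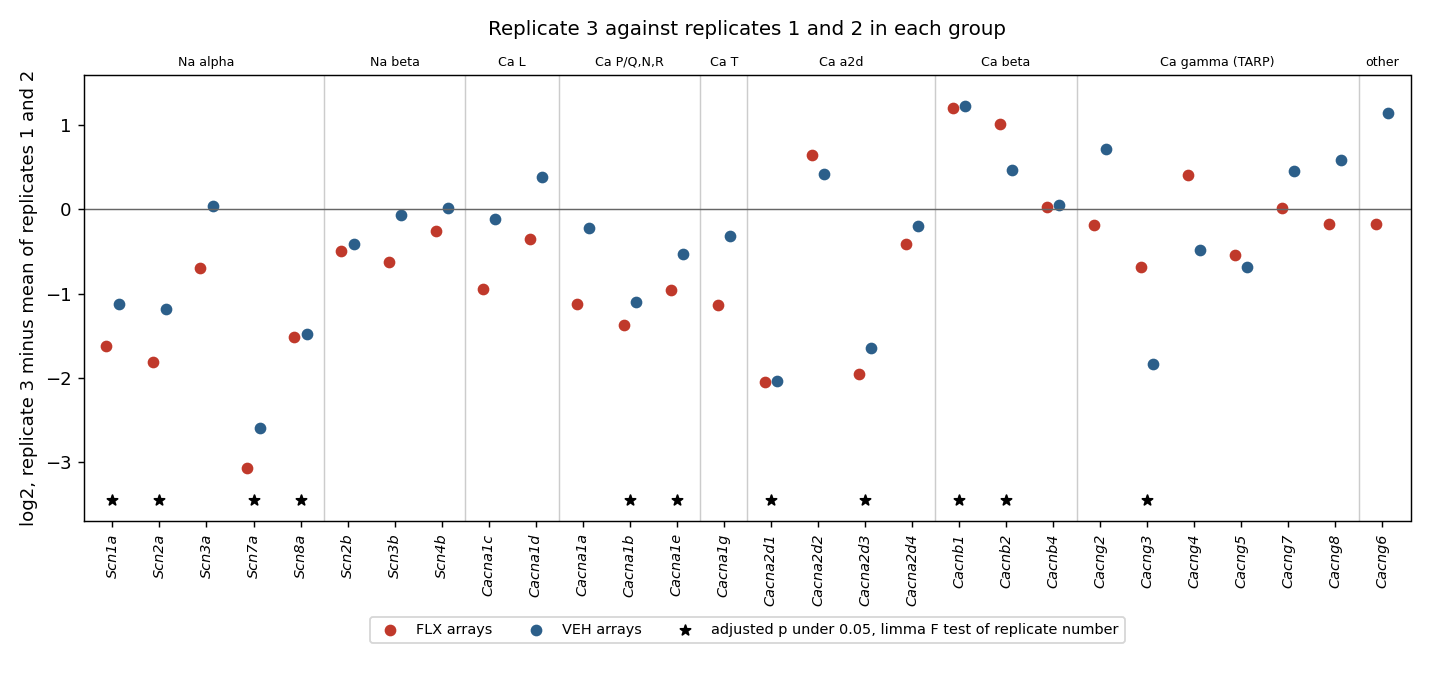
Log2 difference between the replicate 3 array and the mean of replicates 1 and 2, in FLX (red) and VEH (blue), for the 28 tested channel genes. Stars mark the 11 genes with an adjusted p under 0.05 in limma's F test of the replicate number. The points of Cacna2d1 lie at -2.05 and -2.04 and those of Cacnb1 at 1.21 and 1.24, and Scn7a, at -3.08 and -2.60, was under the minimum of 50 in replicate 3.

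Cell type markers differed between the same arrays, most of them not as whole lists. All 10 leptomeningeal and fibroblast markers were called lower in replicate 3 by the same F test, with a summed intensity of 32781 to 55909 in replicates 1 and 2 and 2721 to 5345 in replicate 3. Of the 7 tested microglial markers 4 were called lower and 0 higher, with sums over the list of 1951 to 2488 in replicate 3 against 2952 to 4337. Of the 8 interneuron markers 4 were called higher and 0 lower, with sums of 34032 to 44214 against 16171 to 22415. Most of that sum was Gad1, with 33896 in FLX replicate 3 and 17507 in FLX replicate 1. Slc32a1 was lower in replicate 3 (-0.31 on the log2 scale) without passing. Of the 4 tested endothelial markers 2 were called lower and 0 higher. The other lists held calls in both directions, and their sums too speak for their brightest members. Of the 5 tested pericyte and smooth muscle markers 3 were called lower and 1 higher, and of the 5 oligodendrocyte precursor markers 3 were called higher and 1 lower. Of the 8 astrocyte markers 5 were called lower, among them Gja1 and Gjb6, and 2 higher, among them Gfap at 4.17-fold, while the sum was 8823 to 11483 in replicate 3 against 21712 to 36074. Of the 4 excitatory neuron markers 2 were called higher and 1 lower (Slc17a7, 1.53-fold), and of the 8 tested layer 5 markers 4 were called higher and 2 lower (Rbp4, 4.27-fold, and Parm1, 1.86-fold). Of the 6 oligodendrocyte markers 3 were called higher and 2 lower (Cldn11, 6.46-fold, and Mag, 2.17-fold). As a measure of RNA integrity, the log2 excess of 3′ over 5′ control probe sets was taken, and a larger excess goes with more broken RNA. Its mean over Gapdh and Actb was 2.09 to 2.33 in replicates 1 and 2 and 2.08 to 2.19 in replicate 3. The controls differed, since Gapdh had 1.99 to 2.32 in replicates 1 and 2 and 1.83 in replicate 3 of either group. Actb had 2.18 to 2.34 in replicates 1 and 2, and 2.32 (FLX) and 2.56 (VEH) in replicate 3. The part of the cell types in the channel values was not tested.

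To show the sequence before the start of the genes that differed most between the replicate numbers, 250 bases upstream are printed for Scn7a and Cacna2d1, the members with the lowest measured replicate 3 difference, and for Cacnb1, the one with the highest. The choice of Scn7a rests on replicate 3 values under 50. They are RefSeq promoters on GRCm38.p6, on the gene's strand, 5′ to 3′, at chr2:66784911-66785160 (minus strand), chr5:15934441-15934690 (plus strand) and chr11:98022628-98022877 (minus strand). RefSeq promoters were found for 27 of the 35 genes, and for genes with several starts, such as Cacnb1, the most upstream was taken. Capitals mark GGGCGG on either strand, the core of GC boxes bound by Sp1-type factors, with overlapping matches counted.
Scn7a: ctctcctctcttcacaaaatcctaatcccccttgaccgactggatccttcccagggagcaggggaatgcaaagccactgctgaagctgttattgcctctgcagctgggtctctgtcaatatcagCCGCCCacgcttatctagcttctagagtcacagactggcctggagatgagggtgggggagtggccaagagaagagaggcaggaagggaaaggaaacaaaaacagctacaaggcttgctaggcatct
Cacna2d1: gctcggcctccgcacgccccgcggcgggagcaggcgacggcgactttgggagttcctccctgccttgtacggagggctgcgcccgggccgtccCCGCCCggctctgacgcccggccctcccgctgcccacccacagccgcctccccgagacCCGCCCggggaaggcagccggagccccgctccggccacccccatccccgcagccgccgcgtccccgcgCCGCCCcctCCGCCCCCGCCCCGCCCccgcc
Cacnb1: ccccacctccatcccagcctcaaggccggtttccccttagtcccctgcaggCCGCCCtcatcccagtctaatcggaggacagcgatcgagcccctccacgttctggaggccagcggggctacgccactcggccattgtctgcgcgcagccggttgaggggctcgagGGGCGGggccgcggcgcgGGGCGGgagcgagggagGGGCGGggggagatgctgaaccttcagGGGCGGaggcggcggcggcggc
The motif was found 6 times before Cacna2d1 and 5 times before Cacnb1, so the gene that fell 4.12-fold and the gene that rose 2.33-fold in replicate 3 are alike in this respect, and both stretches are rich in G and C (82.4% and 73.2%). Scn7a had 1 match and 53.2% G and C. The motif was present in 32.7% of all 32851 promoters of that length, where every start of a gene counts and genes need not be tested. Counted once per gene, it was present in 10 of the 22 tested channel genes with a promoter. It was present in 5 of 13 that were lower in replicate 3 and in 5 of 9 that were higher. The share over all promoters is thus not in the same unit. These matches describe the letters only.

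Genes whose products work with the channels were read from lists assembled beside the member set. Of 19 sodium channel partners 16 were tested, with a median FLX minus VEH difference of 0.15, 11 positive differences and 0 calls. The 3 with the smallest unadjusted p were Cntnap2, an adhesion protein beside the node, Unc80, a subunit of the sodium leak channel complex, and Fgf13, which binds sodium channel tails. Cntnap2 had 736, 709.6 and 817 in FLX and 494, 703 and 447 in VEH, a difference of 0.49 (SE 0.24). Unc80 had 1246, 1259 and 1408 in FLX and 925, 1141 and 921 in VEH, a difference of 0.39 (SE 0.19). Fgf13 had 7472, 6311 and 9383 in FLX and 5092, 5964 and 6280.3 in VEH, a difference of 0.40 (SE 0.23). In each of these 3 genes every FLX value exceeded every VEH value, but the adjusted p did not pass. For Cntnap2 (709.6 against 703) and Fgf13 (6311 against 6280.3) the margin was small. Genes picked by the smallest p are prone to such values. Over the whole list it held for 3 of 16 genes, beside 2.61% of all tested genes, and this share was not tested. Of 25 calcium channel partners 19 were tested, with a median of 0.18, 15 positive differences and 0 calls. Those with the smallest unadjusted p were Gem, a small GTPase that inhibits calcium channels (0.56, SE 0.33, past the minimum through FLX alone), Ppp3r1, the regulatory subunit of calcineurin (0.28, SE 0.22), and Ncs1, a neuronal calcium sensor (0.26, SE 0.29).

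By replicate number the partner lists split. Among sodium channel partners limma's F test called 7 of 16. The 5 that were lower in replicate 3 were the leak channel pore Nalcn (4.16-fold) and the cell surface adhesion proteins Nrcam (4.95-fold), Cntn1 (3.78-fold), Nfasc (1.94-fold) and Cntn2 (1.87-fold). The 2 that were higher were the intracellular scaffold Ank3 (2.21-fold) and the ubiquitin ligase Nedd4l (2.78-fold). Among calcium channel partners 11 of 19 were called and 11 of these 11 were higher in replicate 3. They were the calcium/calmodulin kinase genes Camk2a, Camk2b, Camk2d and Camk2g, the active zone genes Rims2, Rimbp2, Erc1 and Erc2, the GTPase Rem2, the adaptor Stac2 and the anchoring protein Akap5, with folds from 1.83 for Stac2 to 3.44 for Camk2d. The shares of all tested genes called lower and higher were 26.7% and 17.9%.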

How the data were processed

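Affymetrix 1-colour arrays were hybridised with RNA from immunoprecipitated ribosomes, amplified from 15 ng, per the labels' protocols. The deposited values are intensities on a linear scale, normalized by the authors with GCRMA per the submitters' processing notes, with version and settings not given in the sources used here. They ran from 1.60 to 76587, with medians of 38.6 to 42.0 per array, and the number of arrays limits the precision. Of 45101 probe sets, 64 controls were left out of the tests. Genes were named from the platform annotation, only from probe sets with 1 symbol (34945), and a newer gene table changed 0 symbols. Probe sets ending in _x_at or _s_at may match several transcripts. Log2 values without a pseudocount were fitted with limma 3.58.1 (R 4.3.3), two-sided, and p-values of all 22200 tested probe sets were adjusted by Benjamini-Hochberg, with a threshold of 0.05. FLX versus VEH had treatment as its only term. The replicate number was tested by an F test with treatment in the model. Means of group differences are over 3 arrays each, and the labels call the arrays biological replicates.

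FLX and VEH share replicate numbers. Deviations from the group means correlated at r = 0.70, 0.84 and 0.87 between arrays of equal number, above the limit of 0.1. Arrays of equal number were read as pairs in the differences by replicate number and in the fit with the replicate block. The main FLX versus VEH fit did not use this pairing. Unlike numbers 1 and 2 correlated as well, at 0.64 and 0.76, so the pairing shows mainly in replicate 3. FLX replicate 2 with VEH replicate 1 (0.76) even exceeded the equal number 1 (0.70). With replicate 3 apart in both groups, either matching of numbers 1 and 2 passes the limit of 0.1. These values therefore cannot tell whether arrays of number 1, or of number 2, belong together.

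Every member is named. Values in each array were to be given for members called, not overlapping, differing by at least 0.26 in 1 direction in all 3 replicate numbers, or among the 2 of their subunit type with the smallest p for treatment or for replicate number. The members and lists were chosen with earlier results of these data known. Scripts were tested on simulated data. Figures were drawn with matplotlib 3.10.9.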

Additional observations from a re-analysis of the deposited data

How the results depend on the processing

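FLX versus VEH called 0 probe sets and 0 channel genes by limma under every alternative run: the replicate block, 3 other filters, 2 other choices of probe set, a pseudocount of 16, 2 rescalings, array weights, each array left out and both replicate 3 arrays left out. Positive differences were seen in 24 of 28 genes without both replicate 3 arrays and in 22 with array weights. Of the 28 genes, 9 kept the sign of their difference under all of these in which they were tested. They were Cacna1c, Cacna1e, Cacna2d4, Cacnb4, Cacng5, Scn2b, Scn3a, Scn3b and Scn4b. Cacng5 and Cacna2d4 dropped out under stricter filters. The filters and the replicate block leave a difference as it is and could turn no sign. For Scn2b and Cacnb4, a dimmer tested probe set of opposite sign was not used alone. With 1 array left out Cacng2 also kept its sign (-0.42 to -0.05), and the other 18 ran from -0.49 to 0.075 (Cacna1a), -0.24 to 0.59 (Cacna1b), -0.071 to 0.15 (Cacna1d), -0.30 to 0.28 (Cacna1g), -0.18 to 1.18 (Cacna2d1), -0.27 to 0.21 (Cacna2d2), -0.34 to 0.86 (Cacna2d3), -0.31 to 0.51 (Cacnb1), -0.021 to 0.54 (Cacnb2), -0.20 to 0.88 (Cacng3), -0.17 to 0.18 (Cacng4), -0.33 to 0.26 (Cacng6), -0.21 to 0.027 (Cacng7), -0.38 to 0.039 (Cacng8), -0.33 to 0.59 (Scn1a), -0.25 to 0.75 (Scn2a), -0.59 to 1.30 (Scn7a) and -0.28 to 0.72 (Scn8a).

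Leaving out 1 array keeps the other array of its replicate number. A shift shared by both arrays of a number therefore enters the ranges with 1 array left out and the count of 9 genes that kept their sign. Cacna2d1, for 1, changed sign there although FLX was higher in all 3 replicate numbers. Without both replicate 3 arrays signs turned for Cacna1a (0.0019), Cacna1g (0.17), Cacng2 (0.011), Cacng6 (0.31), Cacng7 (0.023) and Cacng8 (0.10). With array weights they turned for Cacna1g (0.14), Cacna2d2 (0.031), Cacng2 (0.074), Cacng3 (-0.0043), Cacng6 (0.19) and Cacng7 (0.013), with median centring for Cacna1d (-1.9e-04), with a second quantile normalization for Cacng4 (0.017) and with the mean of all probe sets for Scn1a (-0.046). The replicate block changed no call.

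For the replicate number, 7729 to 10473 probe sets were called under the alternatives that kept all arrays. With 1 number left out the count ran from 0 to 10308, that of channel genes from 0 to 14 and that of genes higher in replicate 3 from 1 to 2, and the count of 0 came without replicate 3. The higher genes were 1 with no filter, 1 with array weights and 1 with the replicate number as the only term. Replicate 3 differences kept their sign in 23 of 28 genes. The signs of Cacna1d (-0.034 to 0.071), Cacnb4 (-0.093 to 0.17), Cacng4 (-0.17 to 0.093) and Cacng8 (-0.0036 to 0.42) depended on the number left out, those of Cacng4 on quantile normalization (0.15) and median centring (0.11), and that of Scn4b on median centring (0.028). The causes of these changes were not tested. Genes near the minimum of 50, such as Cacng5, Cacng6 and Cacna2d4, lie close to the background of the arrays. Cacng7, with an identical value in several arrays, may lie there too.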
